A study of Monodelphis domestica with 9 samples.

Results

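Genes of cell division and DNA replication were followed in opossum tissue at the connection of Meckel's cartilage (MC) and the malleus. The 10 genes were chosen by name: PCNA, MCM2, MCM5 and RRM2 for S phase, CDC20, BIRC5, CCNB1, CDK1 and TOP2A for mitosis, and MKI67, which marks dividing cells in all phases. Of these 10 genes, 8 could be measured among 22725 gene names, and 7 had a value in all 3 conditions. CDK1 and RRM2 were not analysed here, and MCM5 was measured in 2 of the 3 conditions. MCM5 lacks a q3 value because q3 was used up to a given identifier, not because of its level.

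The tissue came from 9 colony-bred pups of the grey short-tailed opossum, *Monodelphis domestica*, 3 animals per stage at P16, P18 and P20, and the labels name no treatment. MC and anterior malleus, with little perichondrium, were cut from sections by laser, and the RNA was amplified from a very small input before sequencing. MC is a rod of cartilage that joins the malleus to the jaw in the newborn, and the study asked what happens as the join breaks down. Expression was deposited as 1 mean per condition under the codes q3, q2 and q1, and no source used here pairs a code with a stage, so the codes are kept below.

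The cell cycle copies DNA in S phase and parts the copies in mitosis. PCNA is the sliding clamp of the DNA polymerases, the MCM2 to MCM7 proteins form the helicase that opens the double strand, and ribonucleotide reductase, with subunits RRM1 and RRM2, makes the DNA building blocks. Cyclin B1, from CCNB1, drives entry into mitosis with the kinase CDK1, TOP2A untangles the chromosomes, BIRC5 (survivin) belongs to the chromosomal passenger complex, and CDC20 activates the anaphase-promoting complex that lets sister chromatids part. In growing cartilage, division belongs to the flat, proliferating chondrocytes, and it stops as chondrocytes enlarge.

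Values are in FPKM, a count of fragments divided by transcript length and library size, and were summed over the transcription start site (TSS) groups of a gene. As a measure per length, FPKM lets levels of different genes be set side by side only roughly. How evenly the amplification kept different transcripts was not tested. Each value is a mean over a condition made by the authors, without a value per animal, so no error or depth is given. The authors' own tests between conditions were not used and no test was run here, so no difference below is set against the spread between animals. In bulk tissue, fewer cells of a type and less RNA per cell cannot be told apart.

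Most genes were listed at higher values in q3 than in q2 or q1. The median log2 ratio over the tested TSS groups with values above 0 was 2.08 for q3 over q1 (13424 groups), 0.68 for q2 over q1 (14291 groups) and 1.36 for q3 over q2 (13986 groups). The sources used here do not give how the authors scaled the libraries, so each ratio below is also given relative to this median, called the centred log2 ratio. A gene was taken as past the fold at a centred log2 ratio of at least 1 in either direction. The 3 pairs share conditions and are not independent of each other.

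Among the S phase genes, PCNA had 40.7 FPKM in q3, 13.0 FPKM in q2 and 7.62 FPKM in q1. PCNA was thus the most abundant of the members in q3 and q2, and second to CDC20 in q1. Its level in q3 was 5.33-fold that in q1, and its level in q2 was 1.70-fold that in q1. On the log2 scale these ratios are 2.42 and 0.77, which lie 0.34 and 0.08 above the median of the tested TSS groups. Of all genes measured in the pair, 32.0% had a larger ratio of q3 over q1 than PCNA.

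MCM2, a helicase subunit, had 2.91 FPKM in q3, 2.66 FPKM in q2 and 1.35 FPKM in q1. It was near its q2 level in q3, with a log2 ratio of q3 over q2 of 0.13, while the median TSS group was 1.36 higher. Its centred log2 ratio was -0.97 for q3 over q1, 0.29 for q2 over q1 and -1.23 for q3 over q2. In the last of these pairs 87.3% of genes had a larger ratio. MCM5, another subunit of the same ring, had 2.90 FPKM in q2 and 1.61 FPKM in q1, a log2 ratio of 0.85 and a centred one of 0.16.

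Among the mitotic genes, CDC20 had 40.2 FPKM in q3, 8.77 FPKM in q2 and 10.5 FPKM in q1. CDC20 stood alone at the top of the 4 measured mitotic members in every condition. It was 4.58-fold higher in q3 than in q2, a log2 ratio of 2.19 and a centred one of 0.83, and 13.0% of genes had a larger ratio in that pair. Between q2 and q1 the log2 ratio was -0.26, or -0.94 once centred, and 84.5% of genes had a larger one.

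CCNB1, the cyclin of mitotic entry, had 16.1 FPKM in q3, 4.74 FPKM in q2 and 4.48 FPKM in q1. Like CDC20 it differed little between q2 and q1 before centring, with a log2 ratio of 0.08. Its centred log2 ratio was -0.60, and 75.3% of genes had a larger one. It was 3.41-fold higher in q3 than in q2. TOP2A, the topoisomerase, had 12.8 FPKM in q3, 5.63 FPKM in q2 and 6.12 FPKM in q1. Its log2 ratio was 1.06 for q3 over q1 and -0.12 for q2 over q1, with centred values of -1.02 and -0.81.

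BIRC5, the passenger complex subunit, was the lowest of the 4 measured mitotic members. It had 5.93 FPKM in q3, 2.52 FPKM in q2 and 1.52 FPKM in q1. Of those members it kept nearest to the median in all 3 pairs. Its centred log2 ratios were -0.11 for q3 over q1, 0.05 for q2 over q1 and -0.13 for q3 over q2. MKI67, which coats mitotic chromosomes and is made by dividing cells, had 10.3 FPKM in q3, 6.90 FPKM in q2 and 5.89 FPKM in q1. Its ratio of q3 over q1 was the smallest of the 7 members measured there, at 1.74-fold, a log2 ratio of 0.80 and a centred one of -1.28, and 82.7% of genes had a larger one.

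**Figure D1:**
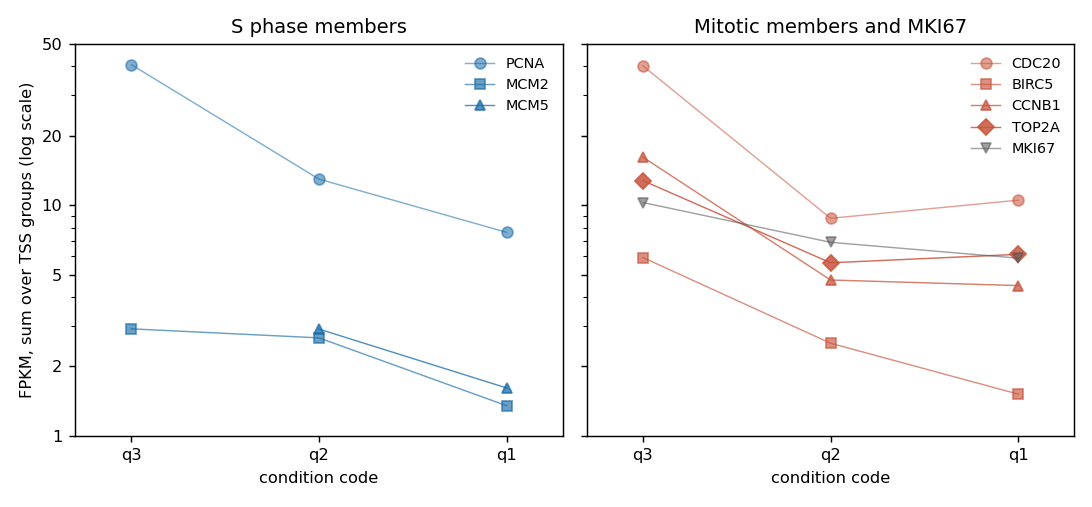
FPKM summed over TSS groups, on a log axis, of the S phase members (left) and of the mitotic members and MKI67 (right) in the condition means q3, q2 and q1. Each point is 1 mean made by the authors, without an error. PCNA and CDC20 reach 40.7 and 40.2 FPKM in q3, and MCM5 has values in q2 and q1.

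Before centring, all 7 members measured in q3 were higher in q3 than in q1, as were 90.5% of the 9003 genes measured in that pair. All 7 were also higher in q3 than in q2, against 88.8% of 9218 genes, and 6 of 8 were higher in q2 than in q1, against 78% of 10165 genes. CDC20 and TOP2A were the members lower in q2 than in q1. These shares are close to those of all genes.

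Relative to the median, PCNA was the one member of 7 above it for q3 over q1, where 45.7% of genes were above. For q2 over q1, 4 of 8 members were above the median (PCNA, MCM2, MCM5 and BIRC5), against 47.8% of genes. For q3 over q2, 3 of 7 were above it (PCNA, CDC20 and CCNB1), against 48.2% of genes. No member was past the fold upwards in any pair, where 12.8% of genes were for q3 over q1, 8.83% for q2 over q1 and 9.73% for q3 over q2. TOP2A and MKI67 were past it downwards for q3 over q1, 2 of 7 members against 21.7% of genes. MCM2 was for q3 over q2, 1 of 7 against 15.9%, and no member was for q2 over q1, against 14.5%. With 1 FPKM added to every value, none of these 3 calls was kept, as MKI67 was at -0.70, TOP2A at -0.46 and MCM2 at -0.90, and CDC20 was past the fold upwards for q3 over q2 at 1.08, 1 of 7 members against 6.26% of genes. With only the highest TSS group of each gene, MKI67 was also past it downwards for q3 over q2, at -1.11, which with MCM2 gives 2 of 7 members against 16.1% of genes.

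The count for q3 over q1 depended on the pseudocount and on the median used. With 1 FPKM added to every value, 4 of 7 members were above the median, against 53.4% of genes. When the median was taken over genes with a mean FPKM of 1 to 20 in q2 and q1, a range chosen after seeing the data because it holds all measured members, BIRC5 at 0.09 and CDC20 at 0.06 also lay above it, giving 3 of 7 members against 54.3% of all genes. MKI67 was then the member past the fold downwards, 1 of 7 against 18.3% of all genes. It was also the member past the fold when the median was taken over gene sums, against 20.1% of all genes, and when 0.1 FPKM was added, against 20.9%.

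**Figure D2:**
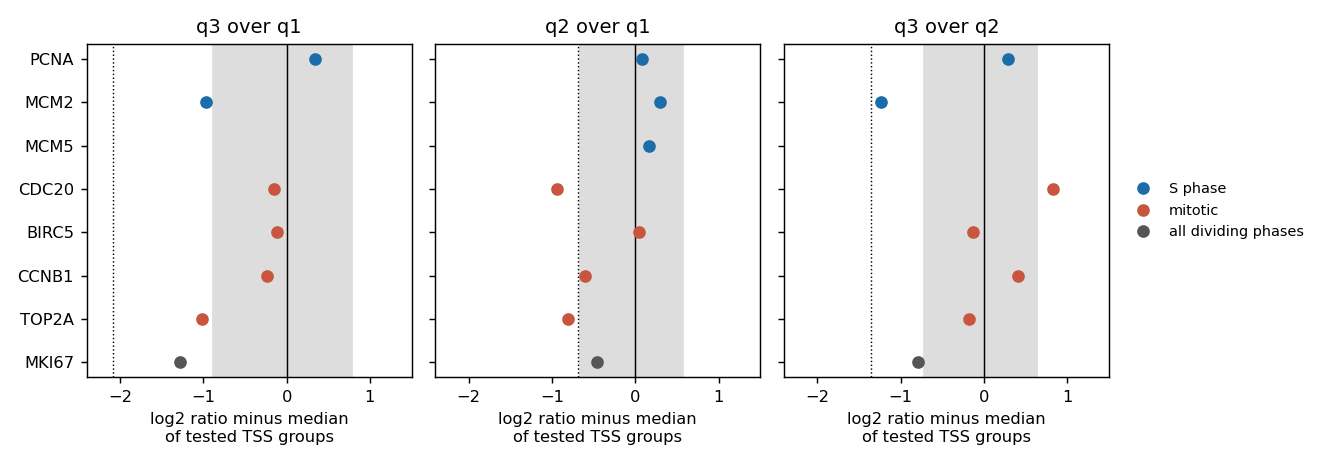
Centred log2 ratio of each measured member for q3 over q1, q2 over q1 and q3 over q2. The solid line at 0 is the median of the tested TSS groups, the grey band holds the middle 50% of them, and the dotted line marks equal FPKM in both conditions. In the middle panel the S phase members lie at 0.08 to 0.29, and the mitotic members at -0.94 to 0.05.

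S phase and mitotic genes were then set against each other. For q2 over q1 the 3 S phase genes had centred log2 ratios of 0.08 to 0.29, with a median of 0.16. The 4 mitotic genes had -0.94 to 0.05, with a median of -0.70, so the values of the sides did not overlap and their medians were 0.87 apart. BIRC5, at 0.05, was close to PCNA, at 0.08. In the wider lists given below the sides overlapped in this pair. Replication genes ran from -2.34 to 0.88 and mitotic genes from -2.53 to 1.75.

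For q3 over q2 the order of the medians was the other way round. PCNA at 0.29 and MCM2 at -1.23 had a median of -0.47, and the mitotic genes, at -0.18 to 0.83, had a median of 0.14, a difference of -0.61. PCNA lay within the range of the mitotic genes, so this difference rests on MCM2. For q3 over q1 the medians were -0.32 for S phase and -0.19 for mitosis, a difference of -0.13 that is small beside the gap between PCNA at 0.34 and MCM2 at -0.97.

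Ratios of 1 gene over another within a condition do not depend on how the libraries were scaled. PCNA per CDC20 was 1.01 in q3, 1.48 in q2 and 0.725 in q1. PCNA per TOP2A was 3.18 in q3, 2.31 in q2 and 1.25 in q1. MCM2 per CDC20 was 0.0724 in q3, 0.303 in q2 and 0.129 in q1. All 8 ratios of PCNA or MCM2 over a mitotic gene were higher in q2 than in q1, which restates that the sides did not overlap in that pair. Of the 8 ratios, 5 exceeded q1 in q3, and 2 exceeded q2 in q3, both of them with PCNA.

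The summed S phase level (PCNA and MCM2) per summed mitotic level (CDC20, BIRC5, CCNB1 and TOP2A) was 0.581 in q3, 0.722 in q2 and 0.397 in q1. PCNA carried most of the S phase sum, and CDC20 was the largest part of the mitotic sum in each condition. The S phase genes also differed from each other, with MCM2 per PCNA at 0.0715 in q3, 0.205 in q2 and 0.177 in q1. MKI67 per TOP2A was 0.804 in q3, 1.23 in q2 and 0.963 in q1.

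**Figure D3:**
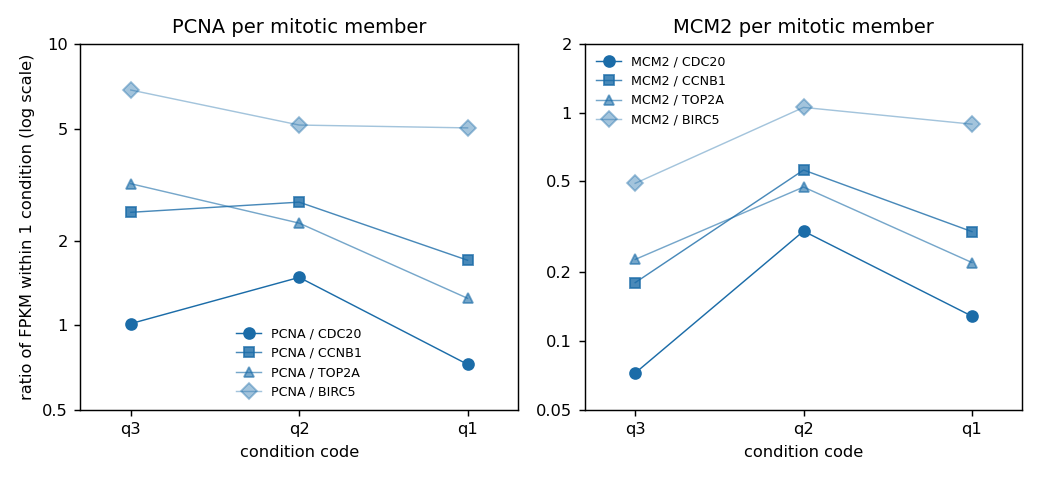
Ratio of PCNA (left) and MCM2 (right) to each mitotic member within a condition, on log axes, for q3, q2 and q1. Each point is a ratio of condition means without an error. All 8 lines are higher in q2 than in q1, and the lines of MCM2 are lower in q3 than in q2.

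Markers of the tissue and of other cells also differed between the conditions. Cartilage markers summed to 923 FPKM in q3, 338 FPKM in q2 and 755 FPKM in q1, over the 7 of 13 with all 3 values. No measured cartilage marker was above the median for q3 over q1 or for q2 over q1, against 45.7% and 47.8% of all genes. COL2A1, the main collagen of cartilage, was listed at 0 in q2 and q1. This and other zeros of markers are given as listed and not as absence. Clasts are the cells that resorb cartilage and bone. Their markers summed to 20199 FPKM in q3, 4276 FPKM in q2 and 1242 FPKM in q1 over 7 of 9 genes. All 7 were past the fold upwards for q3 over q1, against 12.8% of all genes. CALCR, another clast marker, was listed at 0 in q2 and q1 and had no value in q3. Bone markers summed to 13843 FPKM in q3, 6460 FPKM in q2 and 1657 FPKM in q1 over 8 of 9 genes. All 8 were above the median for q3 over q1 and for q2 over q1, against 45.7% and 47.8% of all genes.

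Cells of the blood and vessels divide too. ELANE, a myeloid marker, was listed at 0 in q2 and q1 and had no value in q3. Myeloid markers summed to 465 FPKM in q3, 174 FPKM in q2 and 170 FPKM in q1 over 7 of 10 genes. Their members went opposite ways for q2 over q1, with 5 of 7 above the median, against 47.8% of all genes. Among these 5 was SPI1, named after its values were seen, with 11.7 FPKM in q2 and 2.21 FPKM in q1. S100A8, with 49.9 FPKM in q2 and 87.1 FPKM in q1, and S100A9, with 15.8 FPKM in q2 and 37.6 FPKM in q1, were past the fold downwards, 2 of 7 against 14.5% of all genes. For q3 over q1, 4 of 6 myeloid markers were above the median, against 45.7% of all genes. Erythroid markers summed to 6.80 FPKM in q3, 1.36 FPKM in q2 and 0.438 FPKM in q1 over 3 of 8 genes. These sums leave out ALAS2, an erythroid marker with no value in q3. With ALAS2 the erythroid sum was 12.4 FPKM in q2 and 1.17 FPKM in q1. The order of q3 and q2 is thus not known for the list with ALAS2. Endothelial markers summed to 74.8 FPKM in q3, 24.0 FPKM in q2 and 13.4 FPKM in q1 over 6 of 8. Of the endothelial genes, 5 of 6 were above the median for q3 over q1 and 3 of 6 for q2 over q1, against 45.7% and 47.8% of all genes. Muscle markers summed to 5.53 FPKM in q3, 1.99 FPKM in q2 and 3.00 FPKM in q1 over 4 of 8. CKM was listed at 0 in q2 and q1 and had no value in q3. Schwann cell and neuron markers summed to 2.75 FPKM in q3, 7.16 FPKM in q2 and 7.38 FPKM in q1 over 4 of 8. SOX10 was listed at 0 in q2 and q1 and had no value in q3. The part of these cells in the levels of the members was not tested.

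Most members were carried by 1 TSS group. PCNA lies within a locus on chromosome 1, from 562400863 to 562584434, that also holds TMEM230. CDC20 lies within a locus on chromosome 2, from 10641717 to 11008929, with 7 other gene names. Both spans are of the shared locus and not of the gene alone. Coordinates are those of the authors' table, and the sources used here do not give its genome build. TMEM230 had 31.1 FPKM in q3, 8.43 FPKM in q2 and 5.43 FPKM in q1, and ELOVL1, a neighbour in the locus of CDC20, had 32.4 FPKM in q3, 5.30 FPKM in q2 and 4.30 FPKM in q1. Both were higher in q3 than in q2, like the member beside them, and ELOVL1 was higher in q2 than in q1 where CDC20 was lower. How reads were shared within these loci was not tested.

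The other members have loci of their own. MCM2 lies on chromosome 6 from 252035342 to 252050675, MCM5 on chromosome 8 from 90074848 to 90088437, BIRC5 on chromosome 2 from 239617148 to 239640926, and TOP2A on chromosome 2 from 197121582 to 197147424. CCNB1 lies on chromosome 3 from 35424213 to 35437595, and its main TSS group held 95.7% of its FPKM in q3, 83.0% in q2 and 90.4% in q1.

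MKI67, on chromosome 1 from 3619342 to 3638101, was the exception in having a pair of tested TSS groups. The larger had 7.34 FPKM in q3, 6.16 FPKM in q2 and 4.13 FPKM in q1. The smaller had 2.24 FPKM in q3, 0.00250 FPKM in q2 and 1.38 FPKM in q1, or 21.8%, 0.0363% and 23.4% of the gene in q3, q2 and q1. The smaller TSS group was thus close to 0 in q2 alone, and the log2 ratio of q2 over q1 for the larger one was 0.58, against 0.23 for the gene.

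The members were read beside wider lists of genes with the same roles. Of 61 genes of origin licensing, the replication fork and DNA precursor synthesis, 36 were measured for q3 over q1, with 18 above the median, 3 past the fold upwards, 5 past it downwards and a median centred log2 ratio of 0.00. For q2 over q1, 20 of 39 were above the median, with 0 past the fold upwards and 5 downwards, and for q3 over q2, 18 of 36 were above, with 1 and 5 past the fold. The shares above the median are near those of all genes. The shares past the fold were 8.33% upwards and 13.9% downwards for q3 over q1, 0% and 12.8% for q2 over q1, and 2.78% and 13.9% for q3 over q2, each under the share of all genes in the same direction given above. For q3 over q2 the upward share was not under it with 1 FPKM added to every value (8.33%, against 6.26% of genes) or with only the highest TSS group (16.7%, against 15% of genes). With only the tested TSS groups summed, the downward share for q2 over q1 was 15.4%, against 15% of genes. For q3 over q2 it was 16.7%, against 15.4%. FEN1, RFC2 and RPA3, named after their values were seen, were listed at 0 in q2 and q1, and since RPA3 serves every cell that copies DNA, an exact 0 is given here as listed and not as absence.

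Within the helicase ring the subunits differed from each other. MCM4 had 15.0 FPKM in q3, 3.55 FPKM in q2 and 1.67 FPKM in q1, a log2 ratio of q3 over q1 of 3.16. MCM7 had 21.8 FPKM in q3, 4.54 FPKM in q2 and 4.20 FPKM in q1, and MCM3 had 5.70 FPKM in q3, 1.99 FPKM in q2 and 1.36 FPKM in q1. MCM6 had 11.7 FPKM in q3, 3.96 FPKM in q2 and 5.21 FPKM in q1, so it was lower in q2 than in q1, as CDC20 and TOP2A were. Over the 5 subunits measured, log2 ratios of q3 over q1 ran from 1.11 in MCM2 to 3.16 in MCM4.

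The factors that load the ring also spread. CDT1, a loading factor, had 7.17 FPKM in q3, 2.20 FPKM in q2 and 1.14 FPKM in q1. CDC6, its partner in loading, had 2.01 FPKM in q3, 1.29 FPKM in q2 and 4.07 FPKM in q1, and its centred log2 ratios of -3.10 for q3 over q1 and -2.34 for q2 over q1 were past the fold downwards. GMNN, the inhibitor of CDT1, had 1.68 FPKM in q3, 1.85 FPKM in q2 and 1.33 FPKM in q1, and ORC4, of the origin recognition complex, had 28.4 FPKM in q3, 11.3 FPKM in q2 and 6.33 FPKM in q1.

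Of the genes of DNA precursor synthesis, 3 of 7 were measured. RRM1, the large subunit of ribonucleotide reductase, had 12.9 FPKM in q3, 5.62 FPKM in q2 and 2.95 FPKM in q1. DUT, which removes dUTP, had 184 FPKM in q3, 57.0 FPKM in q2 and 29.9 FPKM in q1, and DCTPP1, another nucleotide hydrolase, had 24.3 FPKM in q3, 9.93 FPKM in q2 and 5.29 FPKM in q1. The centred log2 ratios of these 3 genes were 0.06 to 0.55 for q3 over q1, 0.22 to 0.25 for q2 over q1 and -0.16 to 0.33 for q3 over q2. POLE4, a small subunit of DNA polymerase epsilon, had 219.5 FPKM in q3, 80.0 FPKM in q2 and 48.9 FPKM in q1, and stayed within 0.10 of the median in all 3 pairs.

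The mitotic lists hold 85 genes of kinases and cyclins, anaphase control, chromosome structure and the spindle. For q2 over q1, 17 of 53 measured genes were above the median, or 32.1% against 47.8% of all genes. The median centred log2 ratio was -0.34, with 2 past the fold upwards and 8 downwards, or 3.77% and 15.1% against 8.83% and 14.5% of all genes. For q3 over q1, 11 of 45 were above the median, or 24.4% against 45.7% of all genes, and the median was -0.23. Of the 45, 3 were past the fold upwards and 15 downwards, or 6.67% and 33.3% against 12.8% and 21.7% of all genes. For q3 over q2, 20 of 45 were above, or 44.4% against 48.2% of all genes, with a median of -0.09. In this pair 5 were past the fold upwards and 4 downwards, or 11.1% and 8.89% against 9.73% and 15.9% of all genes. With the 10 chosen genes left out, 16 of 48 genes were above the median for q2 over q1 and 11 of 40 for q3 over q1, or 33.3% and 27.5%.

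The 15 genes past the fold downwards for q3 over q1 are 33.3% of the mitotic genes measured, against 21.7% of all genes. With the median of genes of 1 to 20 FPKM, they were 9 of 45, or 20%. This compares with 18.3% of all genes and 20.8% of the genes in that range, and some of the 45 lie outside it. The share above the median for q3 over q1 was then 44.4%, against 54.3% of all genes and 50% of the genes in that range. With the median of gene sums, 24.4% of the mitotic genes were past the fold downwards, against 20.1% of all genes. With 0.1 FPKM added it was 26.7%, against 20.9%. With only the tested TSS groups summed it was 26.7%, and with only the highest TSS group 28.9%, each against 20.2%. With 1 FPKM added to every value, 13.3% of the mitotic genes were past the fold downwards for q3 over q1, against 14.8% of all genes. The median centred log2 ratio for q2 over q1 was 0.03 in the replication lists and -0.34 in the mitotic lists. With the 10 chosen genes left out, it was -0.04 in the replication lists, with 17 of 36 above the median, and -0.30 in the mitotic lists.

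Genes of the mitotic chromosome had the lowest median of the 9 lists for q3 over q1. For q3 over q1, 2 of 12 measured genes were above the median, against 45.7% of all genes, and 7 were past the fold downwards. This was 58.3%, against 21.7% of all genes, and the median was -1.02. For q2 over q1, 3 of 15 were above the median, and for q3 over q2, 2 of 12, against 47.8% and 48.2% of all genes. The list includes TOP2A and MKI67, and CENPE, a kinetochore motor, had 5.47 FPKM in q3, 2.77 FPKM in q2 and 2.64 FPKM in q1. The others past the fold, named after their values were seen, were NDC80, NUF2, SPC24 and SPC25, whose products form the NDC80 complex that ties kinetochores to microtubules. These genes were low, with 1.60 to 2.88 FPKM in q3, 0.710 to 1.58 FPKM in q2 and 0.823 to 2.04 FPKM in q1. For q3 over q1, 1 of 3 TSS groups was tested in NDC80 and 1 of 4 in NUF2. NDC80 was past the fold by little, at -1.02. With the median of genes of 1 to 20 FPKM, 4 of 12 were past the fold (MKI67, NUF2, SPC24 and SPC25), against 18.3% of all genes. NDC80, TOP2A and CENPE were not, and 2 of 12 were still above the median, against 54.3% of all genes. NCAPH2, a condensin subunit, had 11.3 FPKM in q2 and 5.45 FPKM in q1.

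**Figure D4:**
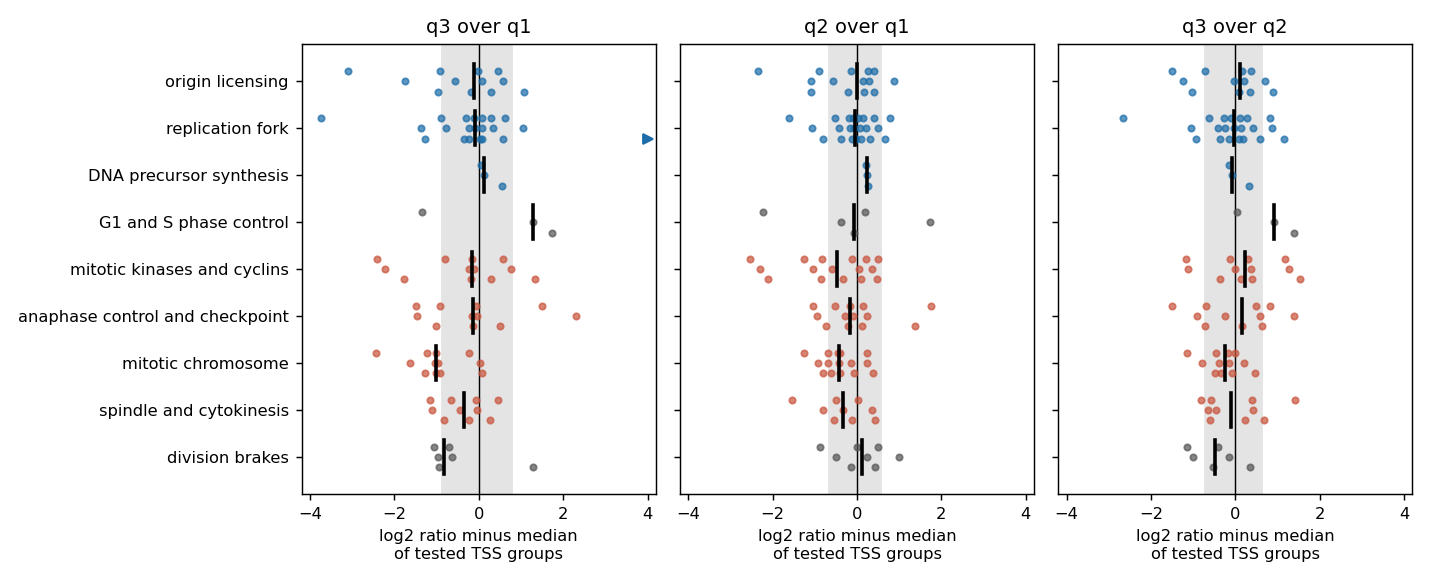
Centred log2 ratio of every measured gene of 9 lists for q3 over q1, q2 over q1 and q3 over q2. Each point is 1 gene, the black bar is the median of the list, the grey band holds the middle 50% of the tested TSS groups, and the triangle marks LIG1 beyond the axis. The mitotic chromosome genes for q3 over q1 have a median of -1.02, and those of origin licensing and of the replication fork lie around 0.

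The kinases of mitosis differed from gene to gene. PLK1 had 8.63 FPKM in q3, 1.40 FPKM in q2 and 0.814 FPKM in q1, a centred log2 ratio of q3 over q1 of 1.33. AURKA, the kinase of the spindle poles, had 1.19 FPKM in q3, 0.999 FPKM in q2 and 1.49 FPKM in q1, and a centred ratio of -2.41. CKS2, a small partner of the cyclin-dependent kinases, had the highest mean of this list over q2 and q1, with 65.7 FPKM in q3, 23.3 FPKM in q2 and 10.5 FPKM in q1. CCNB2 had 1.67 FPKM in q2 and 0.817 FPKM in q1, and CDC25C, the phosphatase that switches on CDK1, had 5.44 FPKM in q2 and 4.24 FPKM in q1.

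BIRC5 was compared with its partners in the passenger complex. INCENP, the scaffold, had 9.19 FPKM in q3, 2.88 FPKM in q2 and 1.27 FPKM in q1, and CDCA8 (borealin) had 1.41 FPKM in q3, 0.427 FPKM in q2 and 1.14 FPKM in q1. For q2 over q1 the log2 ratios of the 3 subunits ran from -1.42 to 1.18, while for q3 over q2 they ran from 1.23 to 1.72. CDCA8 had under 1 FPKM in q2.

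CDC20 binds the spindle checkpoint proteins. MAD2L1 had 19.2 FPKM in q3, 5.34 FPKM in q2 and 4.75 FPKM in q1, and BUB1B had 6.55 FPKM in q3, 2.27 FPKM in q2 and 2.93 FPKM in q1. BUB1B was lower in q2 than in q1, as CDC20 was. ANAPC7, a subunit of the complex that CDC20 activates, had 8.49 FPKM in q3, 5.42 FPKM in q2 and 5.66 FPKM in q1. Of the spindle genes, NUSAP1 had 23.7 FPKM in q3, 12.6 FPKM in q2 and 5.84 FPKM in q1, and KIF22 had 19.5 FPKM in q3, 5.64 FPKM in q2 and 3.81 FPKM in q1.

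The genes that start or stop the cycle were mostly low or partly measured. A missing q3 value, as for CCNE1 and CCND2, follows from the order of identifiers and not from level. CCND1, cyclin D1 of the G1 phase, had 4.30 FPKM in q3, 1.64 FPKM in q2 and 0.307 FPKM in q1, with centred log2 ratios of 1.73 for q3 over q1 and 1.73 for q2 over q1. CCNE1, cyclin E1, had 9.76 FPKM in q2 and 7.88 FPKM in q1, and CCND2 had 6.82 FPKM in q2 and 3.75 FPKM in q1. Of 15 genes in this list, 3 were measured for q3 over q1. Of these, 2 were past the fold upwards and 1 downwards, where 12.8% and 21.7% of all genes were.

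CDKN1A (p21), an inhibitor of the cyclin-dependent kinases, had 27.4 FPKM in q3, 8.42 FPKM in q2 and 2.64 FPKM in q1, a centred log2 ratio of q3 over q1 of 1.30. It was the 1 gene of 6 measured brakes above the median for q3 over q1, against 45.7% of all genes. For q2 over q1, 5 of 8 brakes were above it, against 47.8% of all genes. RB1, the retinoblastoma protein, had 5.01 FPKM in q3, 4.30 FPKM in q2 and 2.28 FPKM in q1. BTG1, an antiproliferative factor, had 68.2 FPKM in q2 and 30.3 FPKM in q1, and CDKN1B (p27) had 0.823 FPKM in q2 and 0.900 FPKM in q1.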

How the data were processed

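RNA-seq was made from laser-captured MC and anterior malleus of opossum pups, 3 per stage (P16, P18 and P20). The authors deposited Cuffdiff's tests per TSS group with condition means in FPKM. TopHat, Cufflinks and Cuffdiff are listed in the submitters' processing notes, and the methods add that Galaxy was used with the Tuxedo protocol. The sources used here do not give their versions, the build, the annotation or the library scaling. Beside the means, the table holds the authors' fold changes, test statistics, p-values and q-values, which were not used. A second table repeats rows of the first and was not used. Values of q3 cover 28026 of 37421 TSS groups (74.9%). Tests of q3 against q1 were listed in full up to a given identifier in text order, and q3 was used up to there. A missing q3 value thus follows from the identifier and not from the level of a gene.

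FPKM was summed over the TSS groups of a gene name. A gene was measured in a pair if every TSS group was listed, at least 1 was marked as tested, and both sums were above 0. For q3 over q2, a TSS group was taken as tested if it was tested for q3 over q1 or q2 over q1. Log2 ratios had no pseudocount and were centred on the median of the tested TSS groups. With no value per animal, no test was run here and depth is unknown. The authors' own tests were left out by choice.

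The members and the 17 gene lists were chosen with earlier results of these data known. The rule for named genes took the members, a set of their partners, and the 2 genes of each list with the highest mean FPKM over q2 and q1. For marker lists, sums are given in place of most of these. Markers listed at 0, the neighbours TMEM230 and ELOVL1, LIG1, SPI1, S100A9, FEN1, RFC2, RPA3, NDC80, NUF2, SPC24 and SPC25 fall outside the rule and were chosen after their values were seen. TYMS, TK1, CCNA2, CDK2, CDK4, AURKB, UBE2C, PTTG1 and CDKN1C were not analysed here. A planned search of promoters was not run. The summing and centring were tested on simulated data with a known shift, little noise and some genes moved by a known amount. The deposited values spread more widely, so this checked the steps and not the calls made here. Alternatives covered the median, pseudocounts of 0.1 and 1, the TSS groups summed, a filter at a mean of 1 FPKM, and the fold. Python 3.11.15, numpy 2.4.6, pandas 2.3.3 and matplotlib 3.10.9 were used.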

Additional observations from a re-analysis of the deposited data

How the results depend on the processing

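The median of the members moved by less than 1.5-fold under its 21 alternatives, and took the other sign in 2, both with a pseudocount of 1 (0.05 for q3 over q1 and 0.06 for q3 over q2). At -0.23 for q3 over q1, -0.20 for q2 over q1 and -0.13 for q3 over q2, the medians are themselves smaller than this limit. Staying within it thus says little of how stable they are. The S phase minus mitotic difference moved by less than 1.5-fold under the 12 alternatives that can change it, while 9 that change the centre alone cannot. The S phase minus mitotic difference was 0.66 to 0.93 for q2 over q1, -0.71 to -0.48 for q3 over q2 and -0.18 to -0.05 for q3 over q1. For q3 over q1 it is also smaller than the 1.5-fold limit. Of 154 values of single members none moved by more than 1.5-fold, but 6 took the other sign and calls past the fold were lost. A pseudocount of 1 ended those of MKI67 (-0.70) and TOP2A (-0.46) for q3 over q1 and of MCM2 (-0.90) for q3 over q2, and put CDC20 (1.08) past the fold for q3 over q2. TOP2A was also lost with a pseudocount of 0.1 (-0.95) and with the medians of gene sums and of genes of 1 to 20 FPKM. The shares of the wider lists past the fold moved more often, in 43 of 120 cases, 9 of them to or from 0%, and the cause was not tested. The balance of replication genes for q3 over q1, 8.33% upwards and 13.9% downwards, turned round with a pseudocount of 1 (11.1% and 8.33%) and with only the highest TSS group (13.9% and 11.1%). So did that for q3 over q2, 2.78% upwards and 13.9% downwards (8.33% and 5.56%, and 16.7% and 13.9%). Without centring the balance of both kinds of genes was upwards in all 3 pairs, where the median of the tested TSS groups was upwards too.

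Shares past the fold are given for q3 over q1, q2 over q1 and q3 over q2 in turn, where they moved. With a log2 fold of 2, replication genes upwards were 2.78% for q3 over q1 and 0% for q3 over q2, and downwards 5.56%, 2.56% and 2.78%; mitotic genes upwards were 2.22%, 0% and 0%, and downwards 6.67%, 5.66% and 0%. Without centring, replication genes upwards were 86.1%, 17.9% and 72.2%, and downwards 5.56%, 2.56% and 2.78%. Mitotic genes upwards were then 75.6%, 15.1% and 62.2%, and downwards 0%, 5.66% and 0%. These uncentred shares hold the shift of most genes, as the median log2 ratio of the tested TSS groups was 2.08, 0.68 and 1.36. The share of all genes was not taken without centring or at a log2 fold of 2. With a pseudocount of 1, replication genes downwards were 8.33%, 5.13% and 5.56%, and upwards 8.33% for q3 over q2; mitotic genes downwards were 13.3%, 7.55% and 2.22%, and upwards 0% for q2 over q1. With only the tested TSS groups summed, mitotic genes upwards were 11.1% for q3 over q1 and 5.66% for q2 over q1, and replication genes upwards were 2.56% for q2 over q1 and 5.56% for q3 over q2. With only the highest TSS group, replication genes upwards were 13.9% for q3 over q1 and 16.7% for q3 over q2, and mitotic genes upwards 13.3% for q3 over q1 and 5.66% for q2 over q1. With the median of genes of 1 to 20 FPKM, chosen after seeing the data, mitotic genes downwards were 20% for q3 over q1, and replication genes downwards 7.69% for q2 over q1 and 8.33% for q3 over q2, and upwards 5.56% for q3 over q2.

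No paired analysis was possible because the table holds condition means and no value per animal, and for the same reason no replicate was left out. LIG1, a DNA ligase, was at 0.007 FPKM in q1, so its ratio is not a measure of size.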
